A study of Mus musculus with 6 samples.

Results

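Matrix metalloproteinases (MMPs), ADAMTS proteases and their tissue inhibitors (TIMPs) were followed in brown adipose tissue of mice given ginsenoside Rb2, a steroid-like saponin of ginseng. The members were the protein-coding genes of the deposited table whose symbol begins with Mmp, Timp, Adamts or Adamtsl and a number. There were 51 of them among 45777 genes: 23 Mmp, 19 Adamts, 5 Adamtsl and 4 Timp genes. The Rb2 group held 3 male wild-type C57Bl6/J mice injected intraperitoneally with Rb2 for 2 weeks, and the control group held 3 such mice injected with phosphate-buffered saline (PBS). The sources used here give neither the dose nor the age of the mice. Libraries are named by the numbers of the table's columns, Rb2 1, 3 and 4 and PBS 1, 2 and 4, which cannot be tied to the sample titles and pair nothing.

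MMPs are zinc-dependent endopeptidases that are made as inactive precursors and cut collagens, other matrix proteins and cell surface proteins. Most are secreted, while the membrane-type MMPs stay on the cell surface, where MMP14 is known to activate the precursor of MMP2 with the help of TIMP2. ADAMTS proteases are secreted enzymes with thrombospondin repeats that process procollagens and cut large proteoglycans, and ADAMTS-like proteins lack the protease domain. TIMPs bind the active site of MMPs, and TIMP3, which stays bound to the matrix, also inhibits several ADAMTS enzymes. In fat these proteins are known for remodelling the matrix around adipocytes and vessels.

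Total counts ran from 87545902 to 89924631 in the Rb2 libraries and from 83642183 to 92666780 in the PBS libraries. Levels are given as CPM (TMM-scaled counts relative to library size) and as CPM per kb of a gene's longest GENCODE transcript where genes are compared. A count of 0 allows up to 3 counts, or 0.0307 to 0.037 CPM depending on the library, for counting error only. The tissue expressed the defining brown adipocyte markers, with summed levels of 8 markers of 11730, 15840 and 14940 CPM in Rb2 1, 3 and 4 and 14930, 14090 and 15310 CPM in PBS 1, 2 and 4. Of these 8 markers Prdm16, a regulator of brown adipocyte identity, fell (-1.13, adjusted p = 0.00584). Dio2, which activates thyroid hormone, was lower without overlap but did not pass (-1.38, adjusted p = 0.134), and the other 6 overlapped between groups. Skeletal muscle markers took 0.000222% to 0.0372% of the counts in Rb2 libraries, and 0.197%, 0.697% and 0.000821% in PBS 1, 2 and 4. The libraries also differed in GC content. Across genes, the Spearman rho between transcript GC content and a library's departure from the mean of all 6 was -0.287 to -0.133 in Rb2 libraries, and 0.0042, 0.347 and 0.386 in PBS 1, 2 and 4.

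Among members with a promoter window, sequence around the start of transcription set the chromosome 9 Mmp cluster apart from the rest. The windows below, from the RefSeq promoter table of GRCm38.p6, run from 250 bases before to 50 bases after a gene's start and are written 5′ to 3′ on the gene's own strand. Of the 51 members, 36 had such a window, among them 24 tested members and all 10 genes of the chromosome 9 Mmp cluster. Mmp2, Mmp17 and Adamts4, whose transcripts fell after Rb2, had none, nor had Mmp9, Mmp16 and Mmp19. Each was searched on both strands for TGANTCA (the AP-1 site), GGGCGG (the GC box), CACGTG (an E-box) and TATAAA (the TATA box), and matches, which may overlap, are in capitals. Mmp3 and Mmp13 are shown for the chromosome 9 Mmp cluster, Mmp14, Mmp15 and Adamts1 because their transcripts fell after Rb2, and Timp3 as the most abundant member. They lie at chr9:7445572-7445871 and chr9:7272264-7272563 (plus strand), chr14:54431348-54431647 and chr8:95352046-95352345 (plus), chr16:85803064-85803363 (minus) and chr10:86300162-86300461 (plus).
Mmp3: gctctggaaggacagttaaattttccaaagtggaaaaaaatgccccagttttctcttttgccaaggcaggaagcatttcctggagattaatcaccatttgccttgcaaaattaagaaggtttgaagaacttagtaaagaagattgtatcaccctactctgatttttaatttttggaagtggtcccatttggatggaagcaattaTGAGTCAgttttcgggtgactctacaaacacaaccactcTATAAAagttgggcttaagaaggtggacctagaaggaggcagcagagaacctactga
Mmp13: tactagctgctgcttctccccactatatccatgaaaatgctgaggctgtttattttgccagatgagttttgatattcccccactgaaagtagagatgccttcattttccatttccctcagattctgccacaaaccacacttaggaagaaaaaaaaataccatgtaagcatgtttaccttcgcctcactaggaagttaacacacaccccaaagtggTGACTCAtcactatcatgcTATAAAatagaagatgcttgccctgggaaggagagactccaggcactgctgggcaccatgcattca
Mmp14: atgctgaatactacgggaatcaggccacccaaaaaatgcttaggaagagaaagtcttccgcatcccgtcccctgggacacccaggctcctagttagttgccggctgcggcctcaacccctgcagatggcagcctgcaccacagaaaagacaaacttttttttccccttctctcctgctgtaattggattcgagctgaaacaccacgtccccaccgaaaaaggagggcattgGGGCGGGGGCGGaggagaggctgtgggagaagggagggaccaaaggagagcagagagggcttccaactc
Mmp15: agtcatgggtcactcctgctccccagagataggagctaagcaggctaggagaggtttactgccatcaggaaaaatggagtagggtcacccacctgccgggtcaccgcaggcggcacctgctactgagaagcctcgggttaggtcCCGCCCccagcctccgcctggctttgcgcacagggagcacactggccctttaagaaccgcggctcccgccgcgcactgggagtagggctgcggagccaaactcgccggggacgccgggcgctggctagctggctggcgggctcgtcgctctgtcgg
Adamts1: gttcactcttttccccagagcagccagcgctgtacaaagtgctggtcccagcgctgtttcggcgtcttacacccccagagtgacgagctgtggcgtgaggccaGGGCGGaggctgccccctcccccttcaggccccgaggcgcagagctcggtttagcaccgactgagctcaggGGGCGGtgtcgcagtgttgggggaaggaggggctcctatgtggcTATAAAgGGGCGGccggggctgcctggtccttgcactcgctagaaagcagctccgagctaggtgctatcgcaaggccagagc
Timp3: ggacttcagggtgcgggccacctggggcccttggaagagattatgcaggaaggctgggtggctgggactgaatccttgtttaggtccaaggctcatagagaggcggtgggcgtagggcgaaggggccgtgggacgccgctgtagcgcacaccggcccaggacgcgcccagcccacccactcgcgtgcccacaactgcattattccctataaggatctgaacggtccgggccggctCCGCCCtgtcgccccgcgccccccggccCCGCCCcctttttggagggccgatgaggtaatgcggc

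The Mmp3 and Mmp13 windows each carried 1 AP-1 match followed by a TATA box. The same arrangement was found in 8 of the 10 genes of the cluster, which spans bases 7272514 to 7699585 of chromosome 9. These were Mmp1a, Mmp1b, Mmp3, Mmp7, Mmp10, Mmp12, Mmp13 and Mmp20, and 12 to 41 bases lay between both matches. Mmp7, Mmp12 and Mmp23 had 2 windows each, and a match in either was counted. For Mmp12 the window at its listed gene start held no match, and both matches lay in a window further downstream. None of the 26 members outside the cluster that had a window carried an AP-1 match. Of those 26, 22 carried a GC box, which no cluster member did. Window GC content was 37.7% to 52% in the cluster and 53.3% to 80% in the other members, and its part in these matches was not tested. Taking only the first window of a gene, the GC box was in 75% of tested members, against 60.3% of all tested genes. Mmp14 had 2 abutting GC boxes (bases 232 to 243 of the window), Mmp15 had 1, and Adamts1 had 3 with a TATA box. Of all 32851 windows in the table outside chromosome 18, 7.81% held the AP-1 letters, 35.7% the GC box, 7.15% the E-box, 13.6% the TATA box and 1.54% both AP-1 and TATA letters. A match describes the letters only and says nothing about which factor was bound.

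Transcript levels spanned more than 3 orders of magnitude and were led by inhibitors. Counts were found for 44 of the 51 members, and 25 averaged 1 CPM or more. Timp3 had the highest level per length of the tested members, at 79.2 CPM per kb in Rb2 mice and 74.8 CPM per kb in PBS mice, and Timp4 followed with 17.4 and 15.98 CPM per kb. Timp3 by itself made up 48.4% of the summed level per length of all members (mean of 6 libraries). The leading proteases were Mmp19 with 8.45 CPM per kb in Rb2 mice and 8.79 in PBS mice, Mmp2 with 6.29 and 9.80, Adamts1 with 4.89 and 10.02, Mmp15 with 4.87 and 7.55, and Mmp14 with 3.49 and 7.05. The chromosome 9 cluster was nearly silent: 5 of its 10 genes had no count in any library, and only Mmp3 exceeded 1 CPM in any library. Mmp21 and Adamts19, which lie elsewhere, were also at 0, which makes 7 members without a count.

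**Figure D1:**
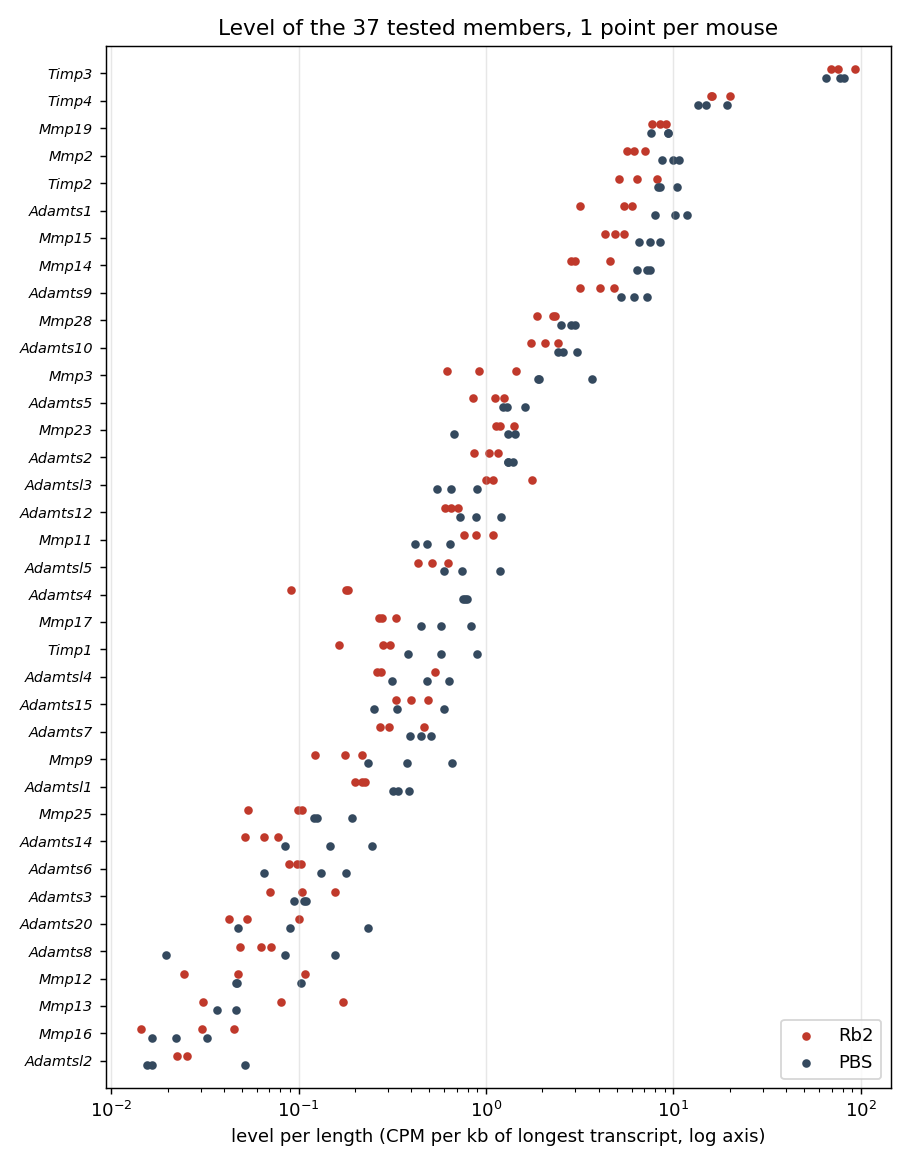
Level per length (CPM per kb of the longest transcript, log axis) of the 37 tested members, ordered by mean, with 1 point per mouse for Rb2 and PBS. Values of 0 (Mmp13 in PBS 4 and Adamtsl2 in Rb2 1) cannot be drawn on the log axis, and Timp3 and Timp4 lie above all proteases in every mouse.

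The comparison asks what 2 weeks of Rb2 changed in this tissue. Of the 37 members that passed the expression filter, 6 fell after Rb2 and none rose (edgeR, p adjusted over all 16707 genes tested and under 0.05). Those 6 were Mmp2, Mmp14, Mmp15, Mmp17, Adamts1 and Adamts4, or 16.2% of the tested members, where 10.4% of all tested genes were called, 5.11% lower and 5.33% higher. These shares of all genes were 4.66% lower and 2.94% higher with library size alone as scaling, and 3.27% lower and 5.15% higher in a fit offset for transcript GC and length. At an unadjusted p under 0.05, 18 members were lower and 2 higher, where 14.6% of all tested genes were lower and 15.5% higher. The groups did not overlap, with Rb2 lower, for 18 of the 37 members (48.6%, against 17.6% of all tested genes), and with Rb2 higher for 2 (5.41%, against 18.2%). The log2 fold change was negative for 28 members (75.7%, against 51% of all tested genes), with a median of -0.46 for the members and -0.013 for all tested genes. Of the 37, 32 exceeded the filter's level of 0.111 CPM in all 6 libraries, and no member entered the test through libraries of 1 group only. The 6 fallen transcripts had a median GC content of 55.3%, against 49.8% for all tested genes and 54.7% for all genes that fell, and the part of GC content was not tested beyond the offset described with Mmp15. In bulk tissue, fewer cells of a type and less RNA per cell cannot be told apart.

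Leaving out 1 of 4 libraries ended most of these calls, as it did over all genes. Adamts4 was called whichever of the 6 libraries was absent. It was the only member called when PBS 1, PBS 2, Rb2 1 or Rb2 3 was left out, while 7 members were lower without PBS 4 and 9 without Rb2 4. Only 5 of the 6 were among them each time: Mmp15 was lost without PBS 4 and Adamts1 without Rb2 4. Adamts1 and Mmp15 were thus each called in 1 of the 6 omissions. The 9 without Rb2 4 include Adamts18, which had no count in Rb2 mice and passed the filter of that fit through PBS libraries alone. Over all genes, 334, 303, 548 and 601 calls were left without PBS 1, PBS 2, Rb2 1 and Rb2 3, against 1743 with all libraries. Over the 6 omissions the log2 fold change ran from -2.51 to -2.08 for Adamts4, -1.27 to -0.89 for Mmp14, -1.27 to -0.81 for Mmp17 and -1.21 to -0.80 for Adamts1. It ran from -0.73 to -0.57 for Mmp2 and from -0.72 to -0.54 for Mmp15. In a fit with the mean log level of muscle markers as covariate, Adamts4, Mmp14 and Mmp2 passed, among 926 calls over all genes. The changes of the other members were then -0.58 for Mmp15 (adjusted p = 0.0588), -0.98 for Mmp17 (0.065) and -1.04 for Adamts1 (0.102).

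**Figure D2:**
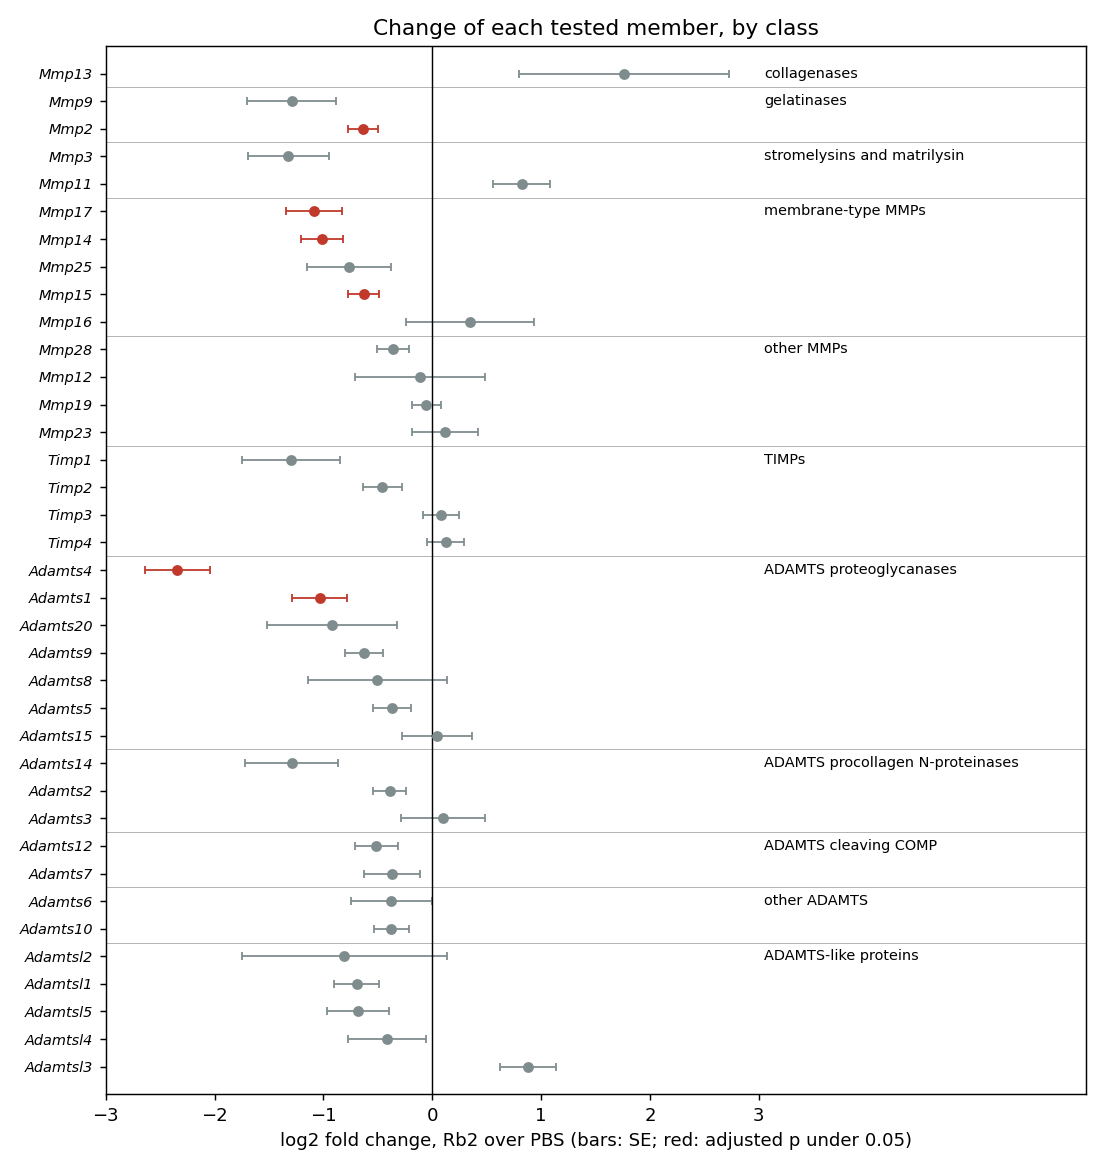
Log2 fold change (Rb2 over PBS, with its SE) of each of the 37 tested members, grouped by class, with the 6 members past the threshold in red. All 6 red points are left of 0, and the single collagenase that was tested, Mmp13, has the widest error.

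Among the gelatinases, which cut denatured collagen and type IV collagen, Mmp2 fell. Mmp2 (gene 17390; chromosome 8, 92827290 to 92853421) was at 17.5, 19.0 and 21.6 CPM in Rb2 1, 3 and 4, against 26.8, 32.8 and 30.8 CPM in PBS 1, 2 and 4. Every Rb2 mouse was below every PBS mouse. The log2 fold change was -0.64 ± 0.14 SE (adjusted p = 0.0222). Mmp9, the other gelatinase and a product of neutrophils and macrophages among other cells, was far less abundant. It was at 0.39, 0.691 and 0.562 CPM in Rb2 mice and at 2.08, 0.745 and 1.21 CPM in PBS mice. The groups did not overlap, PBS 1 stood highest, and the change of -1.29 ± 0.41 SE did not pass (adjusted p = 0.0722; 0.026 in the DESeq2 Wald test). The Wald test was the only one of 17 alternative fits in which Mmp9 was called. Neutrophil markers were scarce, with 9 markers summing to 0.873 to 2.15 CPM in Rb2 mice and 1.51 to 1.92 CPM in PBS mice, and Ly6g and Camp at 0.

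Membrane-type MMPs were the class with the most calls, 3 of 5 tested, all lower. Mmp14 (gene 17387; chromosome 14, 54431598 to 54442456), the main activator of MMP2 and itself a collagenase, was at 9.26, 9.72 and 14.96 CPM in Rb2 1, 3 and 4. In PBS 1, 2 and 4 it was at 23.4, 24.4 and 20.8 CPM. Rb2 4 was the highest of the Rb2 mice and still below all PBS mice. Mmp14 averaged 11.3 ± 3.17 CPM in Rb2 mice and 22.8 ± 1.85 CPM in PBS mice (SD, n = 3 each; log2 fold change -1.01 ± 0.19 SE, adjusted p = 0.0149 by edgeR). Mmp15 (gene 17388; chromosome 8, 95352296 to 95374293), a close relative of Mmp14 and also able to activate MMP2, was at 22.1, 24.96 and 27.99 CPM in Rb2 mice and 33.8, 43.8 and 38.8 CPM in PBS mice. The groups were separate, with a log2 fold change of -0.63 ± 0.14 SE (adjusted p = 0.0268). Its transcript had the highest GC content of the 6 that fell (59.6%), and in a fit offset for transcript GC and length its change was -0.30 (adjusted p = 0.129).

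Mmp17 (gene 23948; chromosome 5, 129584151 to 129611099) encodes an MMP held on the membrane by a lipid anchor. It was at 1.72, 1.79 and 2.13 CPM in Rb2 mice and at 2.91, 5.38 and 3.69 CPM in PBS mice. The Rb2 mice lay close together and below the widely spread PBS mice, with a log2 fold change of -1.08 ± 0.26 SE (adjusted p = 0.0307). Mmp25, the other lipid-anchored MMP, was at 0.242 to 0.475 CPM in Rb2 mice and 0.548 to 0.869 CPM in PBS mice and did not pass (-0.76, adjusted p = 0.212). Mmp16 had at most 0.227 CPM in any library (0.34, adjusted p = 0.727), and Mmp24 at most 4 counts.

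**Figure D3:**
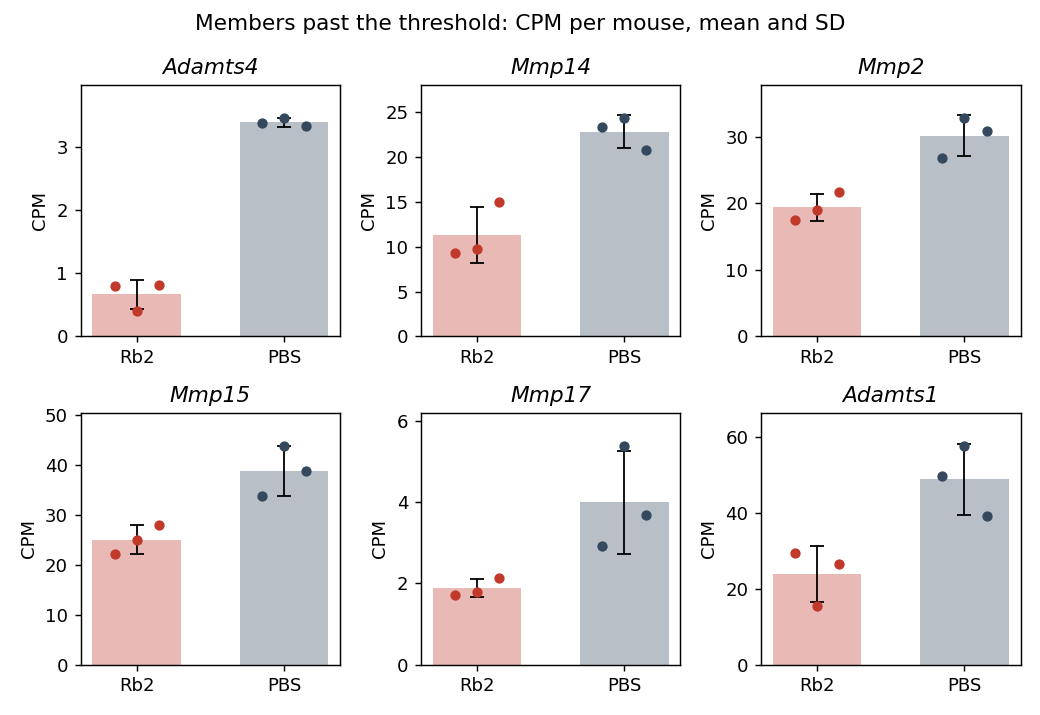
CPM of the 6 members past the threshold in each mouse (points), with the group mean (bar) and SD (error bar), Rb2 left of PBS. In every panel the 3 Rb2 mice lie below the 3 PBS mice, most widely for Adamts4, where Rb2 mice were at 0.40 to 0.81 CPM and PBS mice at 3.33 to 3.46 CPM.

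No secreted collagenase, stromelysin or matrilysin passed the threshold. Mmp3, stromelysin 1, which cuts many matrix proteins and activates other MMP precursors, was at 1.67, 1.11 and 2.62 CPM in Rb2 1, 3 and 4, against 6.65, 3.45 and 3.42 CPM in PBS 1, 2 and 4. PBS 1 was the highest by a wide margin, the groups did not overlap, and the change was -1.32 ± 0.37 SE (adjusted p = 0.0571; 0.0274 without Rb2 4). Mmp3 was called in 3 of 17 alternative fits. Mmp11, stromelysin 3, which is activated inside the cell by furin, went the other way. It was at 2.02, 1.75 and 2.50 CPM in Rb2 mice and at 0.962, 1.11 and 1.47 CPM in PBS mice, without overlap, and did not pass (0.82 ± 0.26 SE, adjusted p = 0.0751). In the fit offset for GC and length it did (1.08, adjusted p = 0.0341), and it was called in 2 of 17 alternative fits. Mmp11 shares 155 exon bases on the opposite strand with Chchd10, a far more abundant gene (558 CPM in Rb2 mice and 774 CPM in PBS mice), and whether the counting used strand is not given in the sources used here.

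Mmp13, a collagenase and the nearest to MMP1 in function in rodents, was at 0.0826, 0.461 and 0.216 CPM in Rb2 mice and at 0.0987, 0.124 and 0 CPM in PBS mice. The groups overlapped and the change was not past the threshold (1.76 ± 0.97 SE, adjusted p = 0.255; 3.14 and 0.0481 with the muscle covariate). The covariate fit was the only one of 15 alternative fits in which Mmp13 was called. Mmp8, the neutrophil collagenase, had counts of 12, 0 and 0 in Rb2 mice and 0, 5 and 9 in PBS mice. Mmp12, the macrophage elastase, was at 0.109 to 0.486 CPM in Rb2 mice and 0.207 to 0.46 CPM in PBS mice.

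Among the remaining MMPs, Mmp19 was the most abundant and showed no difference beyond the spread between mice. Mmp19, a secreted MMP of vessels and stroma, was at 28.8, 31.3 and 26.1 CPM in Rb2 mice and at 31.9, 25.9 and 31.8 CPM in PBS mice. The groups overlapped fully (log2 fold change -0.06 ± 0.13 SE, adjusted p = 0.805). Mmp28 was at 6.47 to 8.02 CPM in Rb2 mice and 8.62 to 10.3 CPM in PBS mice, separate but not past the threshold (-0.36, adjusted p = 0.14). Mmp23 was at 1.63 to 2.03 CPM in Rb2 mice and 0.974 to 2.06 CPM in PBS mice. Mmp27 had no count in any Rb2 library and 9, 8 and 6 counts in PBS 1, 2 and 4. Its mean PBS level was 2.45 times the Rb2 floor of 3 counts per library, a ratio that leaves out the error of the PBS counts. Mmp27 was below the expression filter, and in edgeR without the filter it did not pass (adjusted p = 0.0795).

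The proteoglycan-cutting ADAMTS enzymes held both ADAMTS calls. Adamts4 (gene 240913; chromosome 1, 171250129 to 171262267), aggrecanase 1, which cuts aggrecan and versican, had the largest change of all tested members. It was at 0.791, 0.400 and 0.810 CPM in Rb2 1, 3 and 4, against 3.38, 3.46 and 3.33 CPM in PBS 1, 2 and 4. The PBS mice were nearly equal, and every Rb2 mouse was far below them. The log2 fold change was -2.34 ± 0.30 SE (adjusted p = 0.00466), which is 19.7% of the PBS level. Without PBS 1 and PBS 2 its change was -2.31 (adjusted p = 0.184), in a test that made no call in any gene.

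Adamts1 (gene 11504; chromosome 16, 85793827 to 85803113), which cuts versican and aggrecan and is known to restrain vessel growth, was at 29.4, 15.5 and 26.7 CPM in Rb2 mice. In PBS mice it was at 49.9, 57.8 and 39.1 CPM. Rb2 3 was the lowest, and the groups did not overlap (-1.03 ± 0.25 SE, adjusted p = 0.0411). Adamts5, which cuts the same proteoglycans and lies next to Adamts1 on chromosome 16, was at 9.16, 12.03 and 13.5 CPM in Rb2 mice and 17.4, 14.04 and 13.3 CPM in PBS mice. The highest Rb2 mouse was just above the lowest PBS mouse, and Adamts5 did not pass (-0.37, adjusted p = 0.188). Adamts9, another versican-cutting enzyme, was at 25.5, 32.7 and 38.5 CPM in Rb2 mice and 49.2, 58.0 and 42.0 CPM in PBS mice. It was separate between groups and just outside the threshold (-0.62 ± 0.18 SE, adjusted p = 0.052).

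Adamts15 and Adamts8, neighbours on chromosome 9, overlapped between groups. Adamts15 was at 1.96 to 2.91 CPM in Rb2 mice and 1.50 to 3.54 CPM in PBS mice, and Adamts8 at 0.177 to 0.259 CPM in Rb2 mice and 0.0716 to 0.569 CPM in PBS mice. Adamts20 was at 0.292 to 0.691 CPM in Rb2 mice and 0.327 to 1.61 CPM in PBS mice, with PBS 2 far above the others.

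The procollagen N-proteinases, which trim the amino-terminal propeptide from fibrillar procollagens, had no call among 3 tested. Adamts2 was at 7.58, 6.25 and 8.45 CPM in Rb2 mice and at 10.2, 9.52 and 9.55 CPM in PBS mice. All Rb2 mice were below all PBS mice, by less than the test could call (-0.39 ± 0.15 SE, adjusted p = 0.121). Adamts14 was at 0.27 to 0.401 CPM in Rb2 mice and 0.44 to 1.27 CPM in PBS mice (-1.29, adjusted p = 0.0809), and Adamts3 overlapped (0.10, adjusted p = 0.887).

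Of the enzymes that cut cartilage oligomeric matrix protein, Adamts12 was the higher per length. It was at 5.22, 5.59 and 6.09 CPM in Rb2 mice and 10.3, 7.61 and 6.22 CPM in PBS mice, with PBS 4 close to the Rb2 mice (-0.51 ± 0.20 SE, adjusted p = 0.118). Adamts7 overlapped between groups (-0.37, adjusted p = 0.365). Adamts10, known for its association with fibrillin microfibrils, was at 7.15, 8.49 and 9.94 CPM in Rb2 mice and 10.6, 10.03 and 12.6 CPM in PBS mice (-0.38 ± 0.16 SE, adjusted p = 0.155). Adamts6, its closest relative, overlapped (-0.38, adjusted p = 0.527). Adamts16 had 0, 13 and 4 counts in Rb2 mice and 10, 8 and 6 in PBS mice, and Adamts17 had 4, 5 and 8 counts in Rb2 mice and 9, 13 and 22 in PBS mice, both below the filter. Adamts13, the protease of von Willebrand factor that is made mainly in liver, had 1 count in Rb2 mice in all and 6 in PBS mice. Adamts18 had no count in Rb2 mice and 13, 6 and 11 in PBS 1, 2 and 4. Its mean PBS level was 3.21 times the Rb2 floor of 3 counts per library, again without the error of the PBS counts. Adamts18 was below the filter, and its adjusted p in edgeR was 0.0571 without the filter. With Rb2 4 left out it passed the filter through PBS libraries alone and was called lower.

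Of the 5 ADAMTS-like genes none passed the threshold. Adamtsl3 had the highest level per length among them and was higher after Rb2 in all mice, at 7.89, 7.28 and 12.7 CPM in Rb2 1, 3 and 4 against 3.96, 6.48 and 4.70 CPM in PBS 1, 2 and 4. Rb2 4 stood out as the highest, and the change of 0.88 ± 0.26 SE missed the threshold (adjusted p = 0.0614). Adamtsl1 was at 1.57 to 1.78 CPM in Rb2 mice and 2.52 to 3.03 CPM in PBS mice, also separate, with a change of -0.70 ± 0.21 SE (adjusted p = 0.0592). Adamtsl2, Adamtsl4 and Adamtsl5 had negative changes of -0.81, -0.41 and -0.68 and overlapped between groups.

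No TIMP passed the threshold, and the abundant ones differed little between groups. Timp3 (chromosome 10, 86300412 to 86349505) was at 326, 439.5 and 356 CPM in Rb2 1, 3 and 4 and at 365, 386 and 309 CPM in PBS 1, 2 and 4. The ranges overlapped, and the change was 0.08 ± 0.16 SE (adjusted p = 0.77), or -0.0026 with library size alone as scaling. Timp4, a TIMP typical of fat, heart and muscle, was at 87.7, 88.5 and 110.6 CPM in Rb2 mice and 82.5, 106.8 and 74.3 CPM in PBS mice (0.12 ± 0.17 SE, adjusted p = 0.656). Both lie within synapsin genes of the opposite strand, as does Timp1, and share 1733 exon bases with Syn3 and 90 with Syn2, which are far less abundant.

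Timp2, the partner of MMP14 in the activation of MMP2, was at 23.8, 19.0 and 30.2 CPM in Rb2 mice and at 30.6, 38.6 and 31.3 CPM in PBS mice. Rb2 4 nearly reached PBS 1, and the change was not past the threshold (-0.46 ± 0.18 SE, adjusted p = 0.123; 0.0374 without Rb2 4). That was the only one of 17 alternative fits in which Timp2 was called. Timp1, the TIMP that inflammation and injury are known to induce, was scarce. It was at 0.248, 0.145 and 0.27 CPM in Rb2 mice and at 0.506, 0.796 and 0.337 CPM in PBS mice, without overlap (-1.30 ± 0.45 SE, adjusted p = 0.0906).

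Summed per length within each library, proteases and inhibitors differed in how they stood between groups. These sums include the called genes, so they describe the members and were not tested. The Mmp genes summed to 27.2, 28.4 and 31.9 CPM per kb in Rb2 1, 3 and 4, against 40.6, 42.4 and 41.6 CPM per kb in PBS 1, 2 and 4. The Adamts genes summed to 14.7, 13.1 and 17.4 CPM per kb in Rb2 mice and 25.3, 27.8 and 21.5 CPM per kb in PBS mice. In both sums all Rb2 mice were below all PBS mice. Without their called members, the Mmp sum was 14.1, 14.1 and 14.4 CPM per kb in Rb2 mice and 17.6, 14.8 and 17.0 CPM per kb in PBS mice. The Adamts sum without its called members was 8.499, 9.82 and 11.75 CPM per kb in Rb2 mice and 14.3, 15.1 and 12.7 CPM per kb in PBS mice. Both remainders were still lower in every Rb2 mouse, by a narrow gap.

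The Timp genes summed to 91.7, 114.5 and 104.1 CPM per kb in Rb2 mice and 101.1, 112.5 and 87.7 CPM per kb in PBS mice, which overlap. The ratio of the Timp sum to the Mmp sum, in which library scaling cancels, was 3.37, 4.03 and 3.26 in Rb2 mice and 2.49, 2.65 and 2.11 in PBS mice. Without Timp3 that ratio was 0.832, 0.752 and 0.897 in Rb2 mice and 0.587, 0.725 and 0.538 in PBS mice. For the pair of Timp2 and Mmp14 the ratio of levels per length was 2.25, 1.71 and 1.77 in Rb2 mice and 1.14, 1.38 and 1.32 in PBS mice. These ratios were higher in every Rb2 mouse than in any PBS mouse. Their denominators hold members called lower: Mmp2, Mmp14, Mmp15 and Mmp17 in the Mmp sum, and Mmp14 in the pair. The separation therefore restates those calls in part and was not tested, and ratios to the uncalled Mmp genes are not given here. The ratio of Timp2 to Mmp2 overlapped (1.13, 0.83 and 1.16 in Rb2 mice, 0.946, 0.976 and 0.843 in PBS mice). The difference of the libraries in GC content need not cancel in a ratio. Transcript GC content was 46.8% for Timp3, 47.7% for Timp4 and 53.7% for Timp2. It was 49.0% for Mmp19, 54.3% for Mmp14, 55.3% for Mmp2 and 59.6% for Mmp15. No GC offset was applied to the sums and ratios, and the part of GC content in them was not tested.

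**Figure D4:**
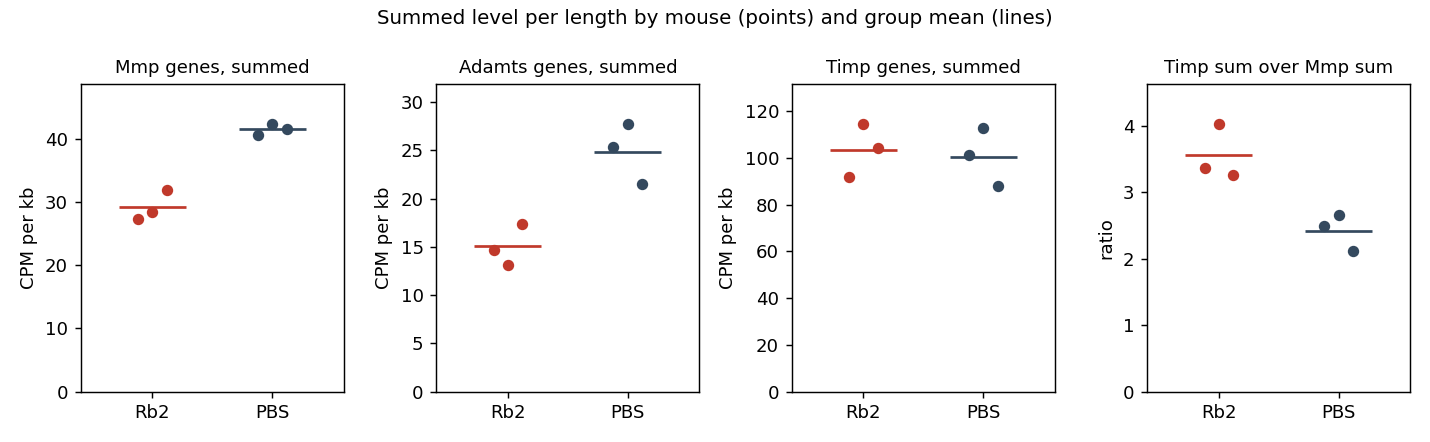
Summed level per length (CPM per kb) of the Mmp, Adamts and Timp genes, and the ratio of the Timp to the Mmp sum, for each mouse (points) with the group mean (line), Rb2 left of PBS. The Mmp and Adamts sums of Rb2 mice lie below those of PBS mice, and the Timp sums overlap. The ratio is 3.26 to 4.03 in Rb2 mice against 2.11 to 2.65 in PBS mice. The Mmp and Adamts sums include the members called lower. No offset for GC content was applied.

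The genes that activate, inhibit or serve as substrates of these enzymes were counted in a list of 59 genes, 48 of them tested. Of these 12 fell and 2 rose (25% and 4.17%, against 5.11% and 5.33% of all tested genes), with a median log2 fold change of -0.52. The substrate group had most of the calls: 10 of 20 tested fell and none rose. It was drawn widely and held Papln, which fell, and Thsd4, which was not called. Both encode relatives of the ADAMTS-like proteins rather than known substrates. In the fit offset for GC and length, Bgn, Fbn1, Ncan and Vwf passed of the 12, while Col4a1, Col4a2, Col5a1, Fn1, Hspg2, Papln, Adam15 and Pcolce did not, and Dcn and Plat were called lower in their place. With the muscle covariate Fbn1, Hspg2, Ncan, Papln and Vwf passed. Fbn1, fibrillin 1, was at 10.1 ± 2.49 CPM in Rb2 mice and 21.3 ± 1.88 CPM in PBS mice (-1.08 ± 0.19 SE, adjusted p = 0.0118). Ncan, a proteoglycan known mainly from brain and expressed at a low level here, averaged 0.641 CPM in Rb2 mice and 1.94 CPM in PBS mice (-1.60). Vwf, von Willebrand factor of endothelial cells, changed by -0.94, and Col4a1, the basement membrane collagen chain that had the highest level per length of the substrates, by -0.59 (adjusted p = 0.0295). The aggrecanase substrates Vcan (-0.21) and Acan (0.28) did not pass, at adjusted p of 0.74 and 0.707, nor did the fibrillar collagen Col1a1 (-0.89, adjusted p = 0.0911).

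Of 8 tested activators 1 rose and none fell. Pcsk5, a proprotein convertase, was at 10.5 ± 0.984 CPM in Rb2 mice and 5.70 ± 1.16 CPM in PBS mice (0.88 ± 0.18 SE, adjusted p = 0.0183). Furin, the convertase that activates membrane-type MMPs, did not differ beyond the spread (61.7 ± 14.9 CPM in Rb2 mice, 60.7 ± 5.04 CPM in PBS mice), and Bsg, an inducer of MMPs and the most abundant of this list per length, changed by -0.16 (adjusted p = 0.556). Of 9 tested inhibitors and clearance genes 1 fell, Pcolce, which enhances procollagen processing by BMP1 (-0.69, adjusted p = 0.0332), and it had the highest level per length among them. Reck, a membrane-bound MMP inhibitor, had -0.65 (adjusted p = 0.0895). Of 9 tested ADAM proteases, relatives that shed membrane proteins, Adam12 rose to 53.7 ± 14.4 CPM in Rb2 mice, against 20.3 ± 1.66 CPM in PBS mice (1.40 ± 0.20 SE, adjusted p = 0.00679), and Adam15 fell (-0.62, adjusted p = 0.0286). Neither of 2 tested astacin proteases passed, Bmp1 (-0.47, adjusted p = 0.0779) being the more abundant. As with the members, most calls were lost when 1 of 4 libraries was absent: 1 gene of the list was lower with PBS 1 left out, 1 with PBS 2, 2 with Rb2 1 and 3 with Rb2 3 left out, while Adam12 was called higher in all 6 of these tests.

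Markers of the cell types that make these enzymes were measured in the same libraries. Over all tested genes 5.11% were called lower and 5.33% higher. Endothelial markers summed to 1017 to 1470 CPM in Rb2 mice and 1806 to 2041 CPM in PBS mice, and 6 of 11 fell. Fibroblast and progenitor markers summed to 517 to 745 CPM in Rb2 mice and 739.8 to 982 CPM in PBS mice, with no call among 10 (edgeR), the nearest at an adjusted p of 0.0719. Mural cell markers summed to 738.5 to 811.5 CPM in Rb2 mice and 899.5 to 928 CPM in PBS mice, and 1 of 10 fell. Macrophage markers summed to 91.3 to 120.9 CPM in Rb2 mice and 129.6 to 164 CPM in PBS mice, and 4 of 10 fell. Skeletal muscle markers summed to 2.36, 395 and 225 CPM in Rb2 1, 3 and 4 and to 2034, 6547 and 7.78 CPM in PBS 1, 2 and 4. No marker of lymphocytes, mast cells or Schwann cells passed among 9, 5 and 6 tested, and the single mesothelial marker tested rose, with Msln and Wt1 at 0. These marker calls are from the edgeR fit of all 6 libraries, and their results in the other fits are not given here. The part of these cell types in the members' changes was not tested.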

How the data were processed

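Gene expression was measured by RNA-seq in brown adipose tissue of 3 Rb2-treated and 3 PBS-treated mice; per the labels' protocols, libraries were made from total RNA with a strand-marking poly(A) kit. The authors deposited raw read counts per gene, whole numbers that are not normalized. The submitters' processing notes name mm10 and the tools HISAT2, StringTie, Bowtie2 and Trimmomatic, without their roles; the sources used here do not state the counting program or its strand setting. The libraries of a group are from separate mice, per the series' design text.

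Counts were tested with edgeR 4.0.16 (R 4.3.3): quasi-likelihood F test, TMM factors, robust dispersions, expression filter (count minimum 10, total 15), Benjamini-Hochberg adjustment over all 16707 genes tested, threshold 0.05. The test was tried on simulated counts. The SE was derived from the F statistic, as |log2 fold change| over its square root. Members, lists and alternatives were chosen with earlier results of these data known. Every member past the threshold, the highest per length in each class, all Timp genes, Mmp2, Mmp9 and Mmp14 are given per library; others are given in ranges. In the related list, up to 3 called genes per group and the most abundant are named; Furin, Reck, Vcan, Acan, Col1a1, the low-count members Mmp27 and Adamts18, and the per-library values of Mmp11, Mmp13, Adamts5 and Adamts9, were added after their values were seen. Positions come from RefSeq GRCm38.p6, transcript lengths, GC content and exon overlaps from GENCODE M21, both of the assembly mm10 stands for. Alternatives were other scaling factors, limma-voom (3.58.1), the DESeq2 Wald test (1.42.0), other filters and thresholds, a muscle covariate, a GC and length offset (natural splines, 5 degrees of freedom each; 93.6% of tested genes had both values), a replicate block and leaving out libraries.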

Additional observations from a re-analysis of the deposited data

How the results depend on the processing

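Other scalings (DESeq2 size factors, upper quartile, library size alone), limma-voom and no filter on low counts left the same 6 members lower and none higher. The number lower and higher was 10 and 2 with the DESeq2 Wald test (9.71% and 10.1% of all genes), 12 and 2 at an adjusted p under 0.1 (9.79% and 10.5%) and 9 and 1 with a count minimum of 50 (8.06% and 7.89%). It was 5 and 1 with the GC and length offset (3.27% and 5.15%), 4 and 0 with a 2-fold minimum (1.93% and 1.45%), and 3 and 1 with the muscle covariate (2.87% and 2.67%). With a replicate block on column numbers (1 and 4 occur in both groups; same-numbered libraries had r of -0.197 and -0.215 in their deviations), no member was lower or higher in edgeR, with 8 lower at an unadjusted p under 0.05 (21.6% of the members tested, against 7.15% of all genes). The block used up all but 1 residual degree of freedom and is not given by the design. Without PBS 1 and PBS 2, where the single PBS library left is assumed to vary like the Rb2 libraries, no gene passed, and 7 members were lower at an unadjusted p under 0.05 (17.5%, against 6.02% of all genes). Leaving out 1 library gave 1 to 9 members lower (1.06% to 6.26% of all genes) and 0 higher. The 9 include Adamts18, which entered that fit through PBS libraries alone.

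For the related list, the numbers lower and higher were 20 and 5 with the Wald test, 20 and 6 at an adjusted p under 0.1, and 3 and 1 with a 2-fold minimum. The number lower was 5 with the muscle covariate, all among the 12 called with all libraries, and 6 with the offset, of which 4 were among those 12, and both numbers were 0 with the block and without PBS 1 and PBS 2. Leaving out 1 library gave 1 to 17 lower and 1 to 4 higher. The 4 higher without Rb2 3 include Plg and Serpinf2. Both were below the filter with all libraries and passed it in that fit through Rb2 libraries alone.

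Changes of sign occurred only in members that passed in no fit that reversed them. They were Adamts15 (-0.041) and Timp3 (-0.0026) with library size alone, Adamts8 with the muscle covariate (0.42), and Adamts8 (0.44) and Mmp12 (0.052) with the block. Without PBS 1 and PBS 2 they were Adamts6 (0.57), Adamts8 (1.62), Adamts20 (0.46), Adamtsl2 (0.049), Adamtsl4 (0.18), Mmp16 (-0.11) and Mmp23 (-0.081). Leaving out 1 library gave ranges of -0.22 to 0.46 for Adamts15, -0.24 to 0.34 for Adamts3, -0.9986 to 0.23 for Adamts8, -0.86 to 0.35 for Mmp12 and -0.076 to 0.67 for Mmp16. The ranges were -0.15 to 0.0034 for Mmp19, -0.14 to 0.32 for Mmp23, -0.049 to 0.17 for Timp3 and -0.0046 to 0.28 for Timp4. For the 14 members below the filter, depth limits what can be said. The causes of these shifts were not tested.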
